A study of Mus musculus with 7 samples.

Results

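The collagen genes were examined in bulk RNA of mouse medial prefrontal cortex. They were taken by name, as every gene of the authors' deposited table whose symbol is Col, a number, the letter a and a number, and 44 of the 17732 listed genes met this rule. All 44 genes of that name form in the GENCODE M21 annotation were in the table. By class, 11 were fibrillar, 6 were the type IV chains of basement membranes, 9 were FACIT collagens (fibril-associated collagens with interrupted triple helices), 4 were transmembrane and 14 belonged to other classes. The libraries came from wild-type male 129SvEv mice, an inbred strain, and tissue was taken after retrieval of a remote memory. The labels name 2 groups, CFC with 3 libraries and SC with 4, and do not spell these names out or give ages. Tissue, sex, strain and genotype were the same in both groups, so of these labels only the treatment separates them. Whether the groups differed in anything beyond the labels was not tested.

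Collagens are proteins of the extracellular matrix made of 3 chains wound around each other, and each chain repeats a unit of glycine followed by any other pair of residues. Fibrillar collagens build banded fibers, type IV collagens form the sheet of the basement membrane around vessels and under the meninges, FACIT collagens sit on fibril surfaces, and transmembrane collagens are anchored in the plasma membrane and can be shed. Adult brain tissue holds little fibrillar collagen outside its vessels and coverings, and several of the less common collagens are made by neurons. The study concerns the extracellular matrix after safety learning, and the question was which collagen transcripts differed between CFC and SC.

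Each gene has 1 mean normalized count over the 7 libraries, 1 log2 fold change and 1 standard error in the authors' deposited table. Values of the individual libraries are not used here. The labels and the file do not say which group is the numerator, so a difference is called positive or negative after its sign in the authors' deposited table, and neither group is said to be higher. Where nothing says that libraries came from separate animals, the p-values measure the spread between these libraries, which may be technical. The median mean count over all listed genes was 255, and the lowest count with an adjusted p-value was 34.9. In bulk tissue, fewer cells of a type and less RNA per cell cannot be told apart.

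The unbroken runs of the repeat that defines the family differ in length between the classes. As examples of the repeat itself, 18 codons of 5 members are shown, which are too short to show that difference. They were read from GENCODE M21 transcripts (GRCm38), 5′ to 3′, with glycine codons in capitals. For Col11a1, Col4a1, Col4a2 and Col25a1 they begin at the start of the longest unbroken run of the repeat, and for Col24a1 they span the end of that run.
Col11a1: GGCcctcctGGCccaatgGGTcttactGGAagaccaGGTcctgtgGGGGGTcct
Col24a1: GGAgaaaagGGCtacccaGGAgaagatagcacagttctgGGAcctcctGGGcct
Col4a1: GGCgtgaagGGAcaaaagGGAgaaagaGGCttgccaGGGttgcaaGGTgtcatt
Col4a2: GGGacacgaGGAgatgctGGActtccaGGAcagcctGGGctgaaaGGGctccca
Col25a1: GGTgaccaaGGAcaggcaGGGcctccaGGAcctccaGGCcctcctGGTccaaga
In Col11a1, Col4a1, Col4a2 and Col25a1, glycine stands at all 6 of the positions where the repeat asks for it. This follows from placing these stretches inside a run. Col11a1 has a further glycine codon directly after the last of these positions. In Col24a1 glycine stands at 3 of 6, because the stretch was placed across the end of the run, after which glycine recurs out of phase. The counts of Col24a1 and of the other 4 stretches are therefore not comparable. Over the longest reading frame of each gene, 9 of the 11 fibrillar chains had a longest run of 337 to 344 repeats. Col24a1 and Col27a1, the remaining fibrillar chains, had longest runs of 216 and 217. The type IV chains had 16 to 24 separate runs of at least 6 repeats, and none of these was longer than 66 repeats. Longest runs were 32 to 113 repeats in the FACIT class, 40 to 56 in the transmembrane class and 23 to 87 in the other classes. The share of the protein within such runs was lowest in Col12a1, at 7.63%, and highest in Col1a2, at 77.2%.

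Most collagen genes were weakly expressed, and a few carried most of the counts. Levels are compared per kilobase of exon (mean normalized count divided by the length covered by the gene's exons in GENCODE M21), since a longer transcript gives more reads. The exons of all annotated transcripts are joined, so this length can exceed that of the expressed transcript and lower the level. It is 4.38 kb for Col6a1 and 8.33 kb for Col6a2, whose proteins have 1025 and 1034 residues. Col6a1, which encodes a chain of the beaded filaments of type VI collagen, had the highest level, at 540 counts per kb. The basement membrane chain Col4a2 followed at 239, the fibrillar chain Col5a1 at 167 and the basement membrane chain Col4a1 at 151 counts per kb. Next came the transmembrane Col25a1, whose shed fragment is a component of amyloid plaques, at 135 counts per kb, and the FACIT member Col19a1, a product of cortical interneurons, at 121. Col6a2 had 63.9 counts per kb, just over the median of 63.7 for all listed genes, and these 7 members were the only ones above that median. Levels were under 10 counts per kb in 23 of the 44 genes. Col6a1 held 17.6% of the summed mean count of all collagens, and it, Col25a1, Col4a2, Col5a1 and Col4a1 together held 61.5%.

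**Figure D1:**
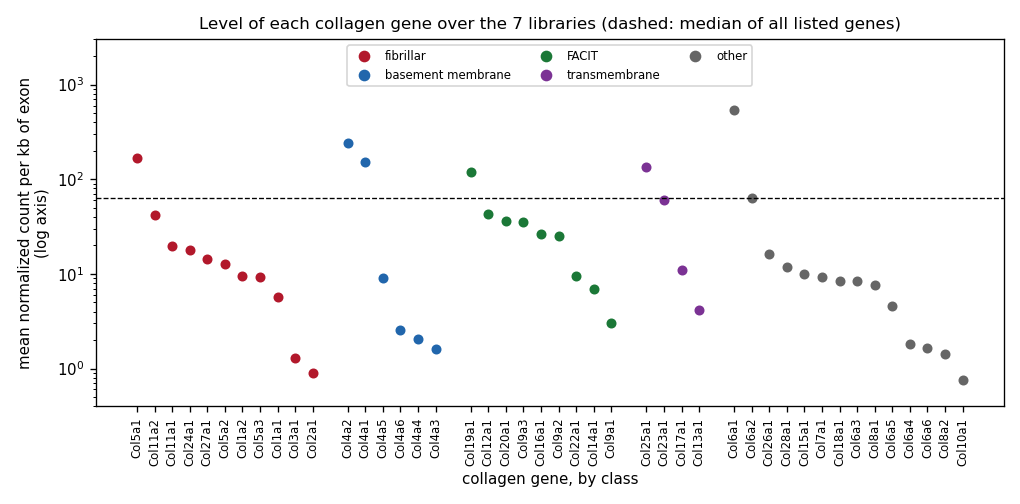
Mean normalized count per kilobase of exon over the 7 libraries (log axis) for each of the 44 collagen genes, ordered by level within its class, with the median of all listed genes as a dashed line. Col6a1 stands highest at 540 counts per kb, and 37 of the points lie below the dashed line of 63.7.

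The classical fibril chains of skin and bone were low. Per the authors' deposited table, the mean count was 37.7 for Col1a1 and 117 for Col1a2, the chains of type I collagen, and 12.7 for Col3a1, the chain of type III. Per kilobase these were 5.75, 9.45 and 1.29 counts. The cartilage collagens Col2a1 and Col10a1 had 0.897 and 0.747 counts per kb, the lowest levels of the 44 genes. These levels are means over both groups and carry no error, so neighbours in the order are not said to differ.

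Of the 44 collagen genes, 1 passed the adjusted threshold of 0.05 (DESeq2 Wald test, Benjamini-Hochberg) set on the authors' deposited table, and it was positive. The background for this count was 0.513% of all listed genes that received an adjusted p-value, 0.368% positive and 0.145% negative. An adjusted p-value was given for 33 collagen genes, and the other 11, with mean counts of 2.34 to 21.7, fell under the authors' filter on low counts. Before adjustment 5 of the 44 genes (11.4%) had a p-value under 0.05, Col11a1, Col5a2, Col12a1 and Col9a1 with a positive and Col13a1 with a negative difference. The same was true of 6.82% of all genes with a p-value, 4.04% positive and 2.78% negative. Restricted to genes above the count filter, this held for 3 of 33 collagen genes (9.09%) and for 8.10% of all genes. The median log2 fold change was 0.06 over the 44 genes and 0.00099 over all listed genes, and 27 collagen genes (61.4%) were positive beside 50.3% of all listed genes.

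Confidence intervals show how large a difference each member could still have. For 31 of the 44 genes the 95% interval, built from the deposited change and its error with normal quantiles, lay wholly within a 2-fold change in either direction. For 16 of them it lay within a 1.5-fold change. The interval included 0 for 39 genes. The other 13 intervals reached or passed a 2-fold change, and 4 of these 13 belonged to genes above the count filter (Col11a1, Col5a2, Col1a1 and Col23a1).

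**Figure D2:**
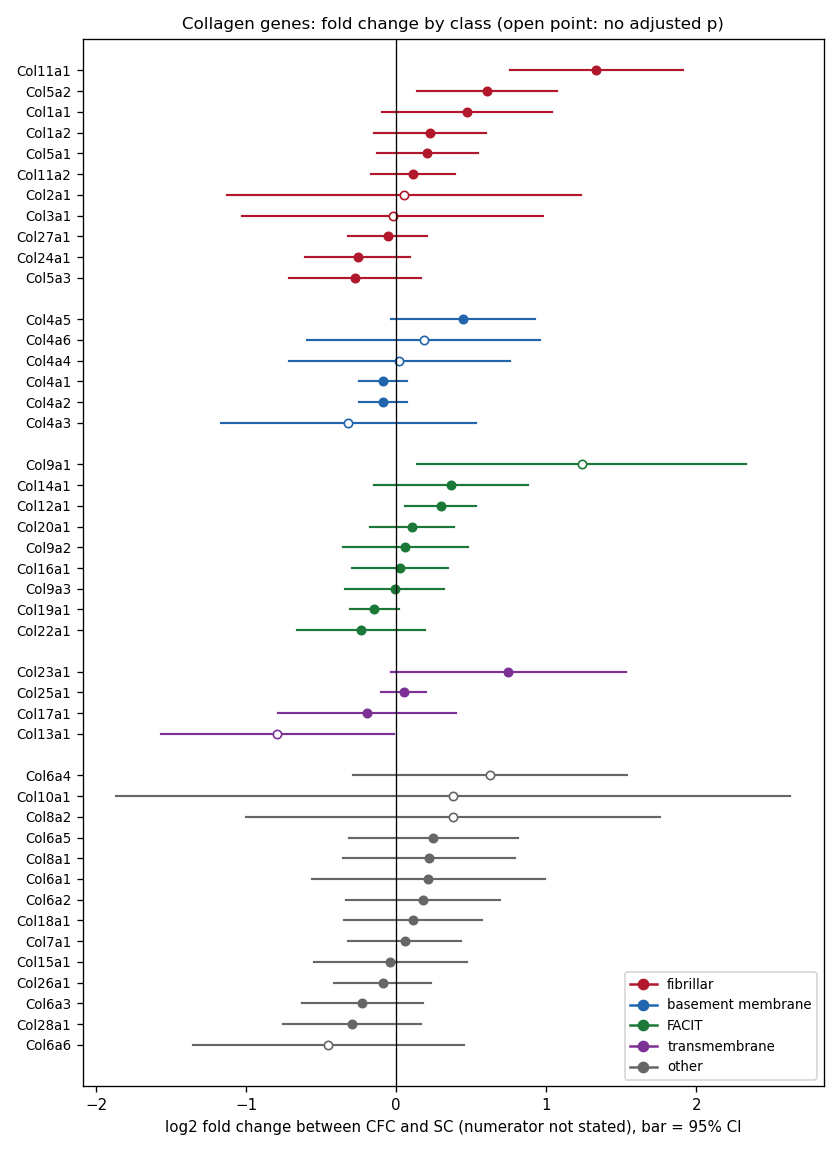
Log2 fold change between CFC and SC (numerator not stated) with its 95% confidence interval for the 44 collagen genes, by class. Filled points have an adjusted p-value and open points do not. Col11a1 at 1.33 is the only gene under an adjusted p-value of 0.05, and the intervals of Col4a1, Col4a2 and Col25a1 are among the narrowest.

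Among the fibrillar collagens, Col11a1 differed between the groups. It encodes the alpha-1 chain of type XI collagen, a minor fibril component that regulates fibril assembly and can join type V chains in mixed molecules. Col11a1 (ENSMUSG00000027966) lies on chromosome 3 from 114030540 to 114220718 on the plus strand (GRCm38). Per the authors' deposited table, it had a mean count of 253 and a difference of 1.33 ± 0.29 (log2, SE), with p = 5.56e-06 before and 0.00334 after adjustment (DESeq2 Wald test, Benjamini-Hochberg). This is a 2.52-fold ratio between the groups, with a 95% interval from 1.69 to 3.76. Of the 67 genes that passed, it had rank 24 by p-value and rank 4 by positive fold change. Tested against differences no larger than 1.2-fold, Col11a1 did not pass (adjusted p = 0.482). It did not pass a Bonferroni adjustment either (0.0726, over the 13060 listed genes with an adjusted p-value).

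The 250 bases upstream of the start of Col11a1 are shown because it was the only member to pass. They were taken from RefSeq (GRCm38.p6), chr3:114030290-114030539, plus strand, 5′ to 3′, and hold no annotated exon. Capitals mark matches to the CCAAT box (CCAAT), the GC box (GGGCGG) and the TATA box (TATAAA), searched on both strands.
Col11a1: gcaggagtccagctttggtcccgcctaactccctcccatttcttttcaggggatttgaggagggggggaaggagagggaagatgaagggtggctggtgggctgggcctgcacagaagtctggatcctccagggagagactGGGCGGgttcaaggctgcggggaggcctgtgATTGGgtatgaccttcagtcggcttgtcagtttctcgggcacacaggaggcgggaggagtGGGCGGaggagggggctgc
The window holds 1 CCAAT match, on the opposite strand, 2 GC box matches and no TATA match, and 62.4% of its bases are G or C. Windows of this length were found for 35 of the 44 members, some with several starts, 38 windows in all. A CCAAT match was present in 34.2% of the member windows and 33.8% of all 32851 windows, a GC box match in 57.9% and 32.7%, and a TATA match in 13.2% and 12.4%. A match is a description of the letters and not a site of binding.

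The partner chains of Col11a1 are given beside it. Col11a2, the second chain of type XI, had a mean count of 289 and a difference of 0.11 ± 0.14 (log2, SE; adjusted p = 0.991) per the authors' deposited table. Its 95% interval, from -0.17 to 0.40, does not reach the lower bound of 0.76 of Col11a1. The difference between the genes was not tested. The type V chain Col5a2 had a mean count of 122 and a difference of 0.61 ± 0.24 (log2, SE) in the authors' deposited table. Its p-value there was 0.0111 before and 0.379 after adjustment. Col5a1, the most abundant fibrillar chain, which sets the number and width of fibrils, had a difference of 0.21 ± 0.17 (log2, SE; adjusted p = 0.930) per the authors' deposited table. The third type V chain, Col5a3, was negative, at -0.27 ± 0.22 (log2, SE; adjusted p = 0.932) per the authors' deposited table, the lowest log2 fold change of the class. Of the type V and XI chains, 4 of 5 were thus positive and 1 passed.

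The other 6 fibrillar genes did not pass. The type I chains Col1a1 and Col1a2 stood at 0.47 ± 0.29 and 0.23 ± 0.19 (log2, SE) per the authors' deposited table. Their 95% intervals, from -0.09 to 1.04 and from -0.15 to 0.60, include 0. Col24a1 and Col27a1, the chains with the shorter repeat runs described above, were negative, at -0.26 ± 0.18 and -0.06 ± 0.13 (log2, SE) per the authors' deposited table. Col2a1 and Col3a1 had no adjusted p-value. At 0.05 ± 0.60 and -0.02 ± 0.51 (log2, SE) per the authors' deposited table, their errors exceeded their differences.

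None of the 6 basement membrane collagens passed, and the abundant pair Col4a1 and Col4a2 had differences near 0 with narrow intervals. Col4a1 and Col4a2 encode the chains of the common type IV molecule of vessel walls. Per the authors' deposited table, Col4a1 had a mean count of 1130 and a difference of -0.09 ± 0.08 (log2, SE; adjusted p = 0.965). Per the same table Col4a2 had a mean count of 1585 and a difference of -0.09 ± 0.08 (log2, SE; adjusted p = 0.966). As ratios the 95% intervals ran from 0.843 to 1.05 for Col4a1 and from 0.842 to 1.05 for Col4a2. A difference as large as that of Col11a1 lies outside both intervals. The genes stand head to head on chromosome 8, and their first exons share 22 bases on opposite strands, which is 0.295% of the exonic length of Col4a1.

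The rarer type IV chains are known, among other tissues, from basement membranes of kidney, lung, eye and ear. Col4a5 had a difference of 0.45 ± 0.25 (log2, SE; adjusted p = 0.741) per the authors' deposited table, the highest value of the class. Col4a3, Col4a4 and Col4a6, with mean counts of 16.0, 21.7 and 20.6, had no adjusted p-value. They stood at -0.32 ± 0.43, 0.02 ± 0.38 and 0.18 ± 0.40 (log2, SE) per the authors' deposited table, and a 1.5-fold difference was not detectable at this precision. Of the 6 type IV genes, 3 were positive and 3 negative, and none had an unadjusted p-value under 0.05.

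Among the FACIT collagens no gene passed, and 2 of 9 had an unadjusted p-value under 0.05, beside 6.82% of all genes with a p-value. Col12a1, which links fibrils to the surrounding matrix, had a mean count of 648 and a difference of 0.30 ± 0.12 (log2, SE) in the authors' deposited table. Its p-value there was 0.0144 before and 0.413 after adjustment, and its 95% interval ran from 0.06 to 0.53. Col9a1, a chain of type IX collagen known from cartilage, had the highest log2 fold change of the class, 1.24 ± 0.56 (log2, SE; unadjusted p = 0.0270) per the authors' deposited table. Its mean count of 15.3 left it without an adjusted p-value, and its 95% interval ran from 0.14 to 2.33. The other type IX chains stood at 0.06 ± 0.21 (Col9a2) and -0.0091 ± 0.17 (Col9a3) (log2, SE) per the authors' deposited table. In GENCODE M21 the exons of Col9a3 overlap those of Tcfl5 on the opposite strand over 6.07% of their length, the largest such overlap of any collagen gene.

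Col19a1 was the most abundant FACIT gene, and loss of its protein is known to reduce inhibitory synapses. It had a mean count of 830 and a difference of -0.14 ± 0.08 (log2, SE; adjusted p = 0.769) per the authors' deposited table. Its 95% interval, from -0.31 to 0.02, includes 0. Col22a1, a collagen of tissue junctions such as that of muscle and tendon, had the lowest log2 fold change of the class, -0.23 ± 0.22 (log2, SE; adjusted p = 0.966) per the authors' deposited table. Col14a1, Col16a1 and Col20a1 stood at 0.37 ± 0.26, 0.03 ± 0.16 and 0.10 ± 0.14 (log2, SE) per the authors' deposited table and did not pass.

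None of the 4 transmembrane collagens passed, with 2 positive and 2 negative. Col25a1, the most abundant of them, had a mean count of 1746 and a difference of 0.05 ± 0.08 (log2, SE; adjusted p = 0.995) per the authors' deposited table. Its ratio had a 95% interval from 0.932 to 1.15. Col23a1 had a mean count of 344 and the highest log2 fold change of the class, 0.75 ± 0.40 (log2, SE; adjusted p = 0.703) per the authors' deposited table. Its 95% interval, from -0.04 to 1.53, covers both no difference and more than a 2-fold one. Col13a1, a collagen of the neuromuscular junction, had the lowest log2 fold change of all 44 genes, -0.79 ± 0.39 (log2, SE; unadjusted p = 0.0451) per the authors' deposited table. Its mean count of 19.2 left it without an adjusted p-value. Col17a1, which anchors epithelial cells to the basement membrane, had a difference of -0.19 ± 0.30 (log2, SE; adjusted p = 0.995) per the authors' deposited table.

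The type VI chains form beaded filaments, for which Col6a1, Col6a2 and an alpha-3 type chain assemble together. Col6a1 had the highest mean count of all collagens, 2364, and a difference of 0.22 ± 0.40 (log2, SE; adjusted p = 0.999) per the authors' deposited table. Its partners Col6a2 and Col6a3 stood at 0.18 ± 0.26 and -0.23 ± 0.21 (log2, SE) per the authors' deposited table. The 95% interval of Col6a1 ran from -0.56 to 0.99 and includes 0. The alternative chains Col6a4, Col6a5 and Col6a6 stood at 0.63 ± 0.47, 0.25 ± 0.29 and -0.45 ± 0.46 (log2, SE) per the authors' deposited table, with mean counts of 15.6, 43.0 and 14.9. The value of Col6a4 was the highest and that of Col6a6 the lowest among the other classes, and their 95% intervals included 0.

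The remaining 8 genes of other classes had no unadjusted p-value under 0.05. Col15a1 and Col18a1, collagens of vessel basement membranes of which Col18a1 carries the inhibitor endostatin, stood at -0.04 ± 0.26 and 0.11 ± 0.24 (log2, SE) per the authors' deposited table. Col8a1 and Col8a2, the chains of the network-forming type VIII, stood at 0.22 ± 0.29 and 0.38 ± 0.70 (log2, SE) per the authors' deposited table. Per the authors' deposited table, the anchoring-fibril chain Col7a1 stood at 0.06 ± 0.19, Col26a1 at -0.09 ± 0.16, Col28a1 at -0.29 ± 0.24 and Col10a1 at 0.38 ± 1.15 (log2, SE).

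The precision of a member did not follow from its abundance alone. Each member's error was set against genes of like abundance, as its ratio to a running median of the deposited errors along the mean count. This ratio was close to 1 for most collagens, with a median of 1.03, and above 2 for 5 of the 44 (11.4%), beside 1.47% of all listed genes. The 5 genes were Col6a1 at 6.19, Col23a1 at 3.66, Col6a2 at 2.83, Col5a1 at 2.39 and Col11a1 at 2.37. Col4a1, Col4a2, Col19a1 and Col25a1, with mean counts of 1130, 1585, 830 and 1746, had ratios of 1.10, 1.19, 1.03 and 1.14. The 5 genes with ratios above 2 were all positive per the authors' deposited table, from 0.18 for Col6a2 to 1.33 for Col11a1.

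**Figure D3:**
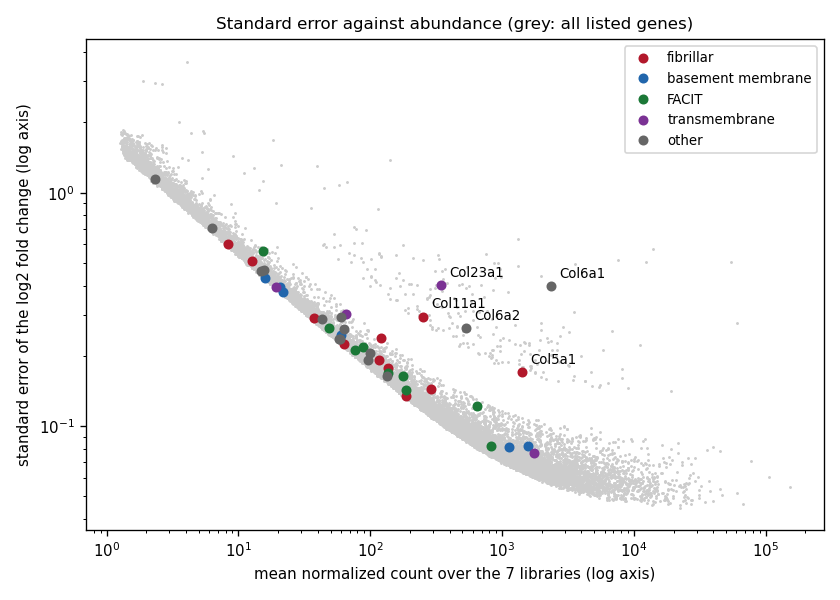
Standard error of the log2 fold change against mean normalized count over the 7 libraries (both log axes), with all listed genes in grey and the 44 collagen genes colored by class. Col6a1, Col23a1, Col6a2, Col5a1 and Col11a1 lie above the grey band, at 2.37 to 6.19 times the running median, and the other collagens lie within or at the edge of it.

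Members that neighbour each other in the genome were set side by side. Within 200 kb, 8 neighbouring pairs involved 15 of the 44 genes, and the signs of the log2 fold changes matched in 4 of the 8. The 3 head-to-head pairs were Col4a1 with Col4a2, Col4a3 with Col4a4, 71 bases apart, and Col4a5 with Col4a6, 1308 bases apart. The pair Col4a5 and Col4a6 had log2 fold changes of 0.45 and 0.18, and Col4a3 and Col4a4 had -0.32 and 0.02, in the authors' deposited table. Col3a1 and Col5a2, tail to tail on chromosome 1 with 24.6 kb between them, had -0.02 and 0.61 in the authors' deposited table. Exons of 13 members overlapped those of another annotated gene, over at most 6.07% of their length.

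No gene on 5 lists of genes that make, cross-link, bind, degrade or accompany collagen passed the adjusted threshold. In this order of the lists, 23, 3, 8, 5 and 18 genes had an adjusted p-value, and only these could pass. Among 26 enzymes and chaperones of collagen folding, modification and processing, 0 passed, 14 were positive and 12 negative, and the median log2 fold change was 0.0057. Before adjustment 2 of the 26 had a p-value under 0.05, beside 6.82% of all genes with a p-value. Adamts2, the protease that removes the amino-terminal propeptide of fibrillar procollagens, had the smallest p-value of the list, with a difference of 0.63 ± 0.18 (log2, SE; adjusted p = 0.0694) per the authors' deposited table. Bmp1, which removes the carboxy-terminal propeptide, was negative, at -0.23 ± 0.09 (log2, SE; adjusted p = 0.339) per the authors' deposited table. P4hb, a subunit of prolyl 4-hydroxylase and the gene with the highest mean count of the list, had a difference of 0.02 ± 0.07 (log2, SE) in the authors' deposited table.

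The 6 cross-linking genes (lysyl oxidases and Tgm2) had 0 passing, 3 positive and 3 negative, with Tgm2, which had the highest mean count, at -0.20 ± 0.18 (log2, SE; adjusted p = 0.961) per the authors' deposited table. Of 10 collagen receptors, 7 were positive, 3 negative and 0 passed. Ddr1, a receptor tyrosine kinase that binds collagen, had the smallest p-value, with a difference of 0.18 ± 0.11 (log2, SE; adjusted p = 0.816) per the authors' deposited table. Adgrg1, an adhesion receptor for type III collagen in developing cortex, had a difference of 0.06 ± 0.09 (log2, SE) in the authors' deposited table. Of 7 collagen-degrading proteases, 3 were positive, 4 negative and 0 passed, and the membrane-type protease Mmp16 had 0.15 ± 0.08 (log2, SE; adjusted p = 0.642) per the authors' deposited table. Among 21 partners in basement membranes and fibrils, 14 were positive, 7 negative and 0 passed. The heparan sulfate proteoglycan Agrn, with the highest mean count of the list, stood at -0.11 ± 0.06 (log2, SE; adjusted p = 0.629) per the authors' deposited table. Thbs2, a matricellular protein with the smallest p-value of the list, stood at 0.40 ± 0.20 (log2, SE; adjusted p = 0.613) per the authors' deposited table.

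Markers of the cells that the tissue can hold were counted the same way. Over all genes with a p-value, 6.82% had an unadjusted value under 0.05. Of 11 markers of vascular and leptomeningeal fibroblasts, which make fibrillar collagens, 8 were positive, 3 negative and 0 passed, with a summed mean count of 400.1 and a median log2 fold change of 0.18. Only 4 of these 11 had an adjusted p-value, so the others could not pass. All 12 endothelial markers were negative, with a median of -0.15, 3 unadjusted p-values under 0.05 and 0 passing. Pericyte markers had 4 positive and 5 negative genes with 0 passing, and all 6 smooth muscle markers were positive, with a median of 0.19, 1 unadjusted p-value under 0.05 and 0 passing. An adjusted p-value was listed for 6 of the 9 pericyte and 3 of the 6 smooth muscle markers. The smallest p-values on these 4 lists belonged to Slc6a13 at 0.72 ± 0.41, Slco1a4 at -0.24 ± 0.08, Rgs5 at -0.13 ± 0.09 and Mylk at 0.33 ± 0.14 (log2, SE) per the authors' deposited table. The highest mean counts (not scaled by length) were those of Bgn at 0.18 ± 0.22 and Flt1 at -0.15 ± 0.07, and again Rgs5 and Mylk, per the same table. None of these markers was listed at a mean count of 0, but neither was any other listed gene, the lowest mean count being 1.26.

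Some neuronal and glial lists were mostly positive and others mostly negative. Of all listed genes with an adjusted p-value, 0.513% passed. Before adjustment, 6.82% of all genes with a p-value were under 0.05. Of 10 layer 6b and layer 6 markers, 9 were positive, with a median log2 fold change of 0.53. An adjusted p-value was listed for 9 of the 10, and 5 passed. Per the authors' deposited table, these were Ccn2 at 2.10, Nxph4 at 1.98, Foxp2 at 0.73, Hs3st4 at 0.49 and Tle4 at 0.33 (log2). Of 9 upper-layer markers, 7 were negative and 2 passed, Otof at -0.42 and Rasgrf2 at -0.31 (log2) per the authors' deposited table, with a median of -0.27. All 14 oligodendrocyte markers were positive, with a median of 1.17, 13 unadjusted p-values under 0.05 and 0 passing. Mobp, with the smallest p-value of these, stood at 1.67 ± 0.49 and Mbp, with the highest mean count, at 1.15 ± 0.51 (log2, SE) per the authors' deposited table. All 9 striatal markers were positive, from 0.04 for Tac1 to 1.95 for Adora2a, with a median of 0.70 (log2) per the authors' deposited table. Of these 1 passed, Drd1 at 0.76 (log2) per the same table. The standard error of Drd1 was 1.25 times the running median. The standard error was over 2 times the running median in all 14 oligodendrocyte markers, 7 of 9 striatal markers and 3 of 10 layer 6b and layer 6 markers. The same held for 3 of 9 upper-layer markers (Cdh13, Enpp2 and Lamp5), 3 of 9 oligodendrocyte precursor markers (Bcas1, Enpp6 and Sox10) and 2 of 7 layer 5 markers. It held as well for 1 of 9 astrocyte, 1 of 9 interneuron and 1 of 6 choroid plexus markers. None of the fibroblast, pericyte, smooth muscle, endothelial and microglia markers had an error over 2 times the running median. The part of these cells in the values of Col11a1 and of the other collagens with high standard errors was not tested, and levels per group were not analysed here.

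**Figure D4:**
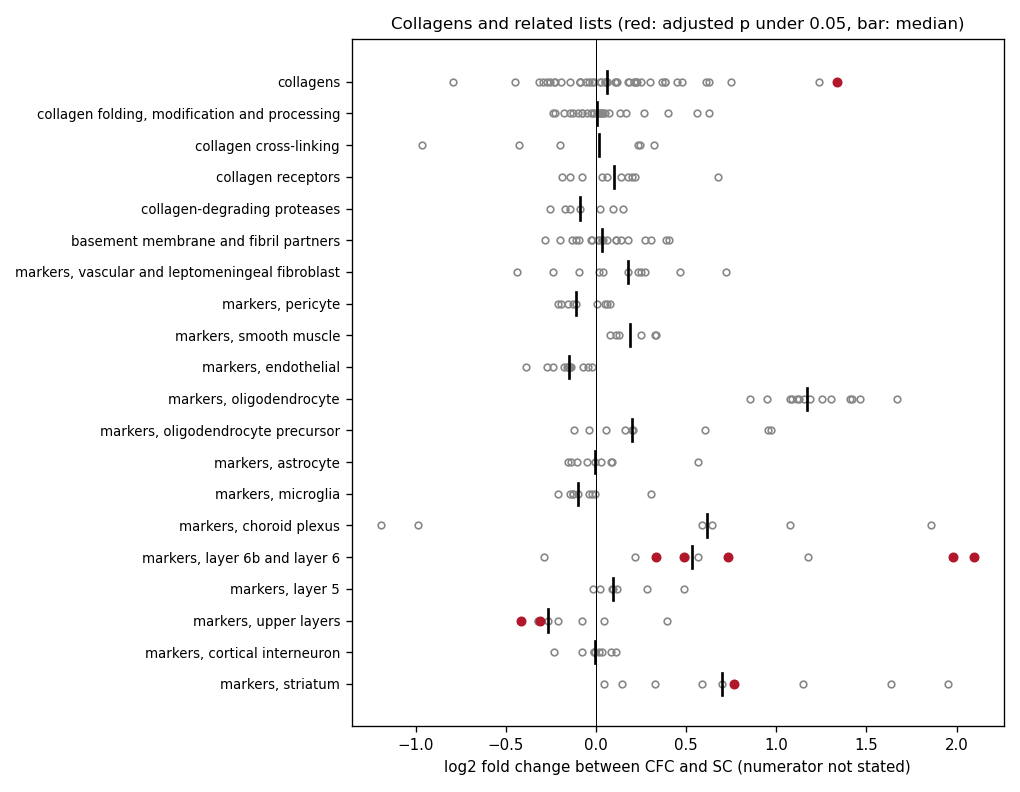
Log2 fold change between CFC and SC (numerator not stated) of each collagen gene and of each gene on the related lists, with 1 row per list, red points for an adjusted p-value under 0.05 and a bar at the median. The collagens center near 0 (median 0.06) with Col11a1 at 1.33 and Col9a1 at 1.24 the highest, while the oligodendrocyte markers center at 1.17.

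The other marker lists held no gene that passed. Astrocyte markers had 4 positive and 5 negative genes with a median log2 fold change of -0.0081, microglia markers had 1 positive and 8 negative genes with a median of -0.10, and 0 passed on either list. Oligodendrocyte precursor markers had 7 positive and 2 negative genes with a median of 0.20, and layer 5 markers 6 positive and 1 negative with a median of 0.09, with 0 passing. Among the precursor markers, Bcas1, Enpp6 and Sox10 stood at 0.96, 0.97 and 0.60 (log2) per the authors' deposited table. The others ranged from -0.12 for Gpr17 to 0.20 for Olig1, with Pdgfra at -0.04 and Cspg4 at 0.05, per the same table. Cortical interneuron markers had 4 positive and 5 negative genes with a median of -0.0082, and 0 passed. Of 6 choroid plexus markers, 4 were positive and 2 negative with 0 passing, a median log2 fold change of 0.61, 2 unadjusted p-values under 0.05 in opposite directions and a summed mean count of 175. Only 1 of the 6, Kl, had an adjusted p-value. Ttr, a defining gene of the choroid plexus, stood at 1.86 ± 1.11 (log2, SE) per the authors' deposited table, with no p-value given. The smallest p-values on the astrocyte, oligodendrocyte precursor, layer 5, interneuron and choroid plexus lists belonged to Slc1a3 at -0.14, Enpp6 at 0.97, Fezf2 at 0.28, Gad2 at 0.08 and Kl at 0.59 (log2) per the authors' deposited table. The highest mean counts on the 6 lists were those of Slc1a2 at -0.05, Csf1r at -0.14, Pdgfra at -0.04, Bcl11b at 0.49, Gad1 at -0.01 and again Kl, per the same table.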

How the data were processed

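RNA of medial prefrontal cortex was measured by sequencing in 7 libraries (3 CFC, 4 SC), per the labels made from 100 ng of RNA with a kit that selects polyadenylated RNA. Trimmomatic, Subread, DESeq2 and the mm10 build are named, with no role or version, per the submitters' processing notes. The annotation and strand setting are not given in the sources used here. The deposited table, per the file headers, gives for each gene the authors' mean normalized count (a signal averaged over libraries), the log2 fold change, its standard error, the Wald statistic (a score), the p-value and the adjusted p-value. Checked on the values, the score equals the ratio of the change to its error, and the p-value is the matching two-sided normal probability. The depth of single libraries is unknown.

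Calls rest on the deposited Wald test of DESeq2, adjusted by the authors with the Benjamini-Hochberg method, at 0.05. An adjusted p-value was listed for the 13060 genes above their count filter, of 17729 with a p-value. The deposited adjusted values are larger than this method gives over those 13060 genes, so the authors' adjustment covered more genes than are listed with one. The other filters, the Bonferroni adjustment and the 1.2-fold null were adjusted here over listed genes only. Added here were 95% normal intervals, running medians of the error, exonic lengths, positions and reading frames from GENCODE M21, and RefSeq promoter windows, with Python 3.11.15, pandas 2.3.3 and scipy 1.17.1. GENCODE held 17726 of the 17732 IDs. Repeat runs have at least 6 repeats. Promoter windows are the 250 bases before each start. The adjustment code was tested on simulated data. Of the related lists, Gp6, Mmp8, Mmp13, Folr1, Otx2 and Fam84b were not matched and not analysed here.

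Named with values were all collagens under an adjusted or unadjusted p-value of 0.05, the ones with the highest mean count and the highest and lowest change in each class, chains of 1 molecule or promoter, and on related lists the genes that passed or else the one with the smallest p-value and the one with the highest mean count. The value of 1 gene that this rule names is not reported here. The members and lists were chosen with earlier results of these data known. The alternatives were another threshold, other filters on the mean count, a Bonferroni adjustment and a null of a 1.2-fold change.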

Additional observations from a re-analysis of the deposited data

How the results depend on the processing

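No paired analysis was possible because only 1 summary value per gene was available here. For the same reason the planned fits without each replicate, with a replicate block, with other count tests or with no filter on single counts were not run, and whether 1 library decides a value was not tested. The 1 collagen gene under the threshold, Col11a1, was also the count with a threshold of 0.1, with no filter on the mean count (adjusted p-value 0.00411) and with a mean count of at least 100 (0.00296). A Bonferroni adjustment and a null of a 1.2-fold change each gave 0 collagen genes, with 5 of the 44 genes under an unadjusted p-value of 0.05, and both are stricter by construction. Col11a1 had 0.0726 and 0.482 under them. On the related lists, 8 of 194 different genes passed, 162 of which had an adjusted p-value, beside 0.513% of all listed genes with one. The count was 7 to 12 under the threshold of 0.1 and the filters, 5 with Bonferroni and 2 against the 1.2-fold null. The adjusted p-values of Col5a2 and Col12a1 stayed above 0.05 in all 5 alternatives, and with no filter those of Col9a1 and Col13a1 were 0.601 and 0.710. The median log2 fold change of 0.06 was 0.06 in the 33 above the authors' filter, 0.10 in the 19 counted at 100 or more and 0.02 as a mean weighted by precision. A narrower or wider running median, or a limit of 1.5 times, left the count of 5 collagens with a high standard error at 5, and these alternatives were chosen after seeing the data. The 11 rarest members, with errors of at least 0.38, could not resolve a 1.5-fold difference.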
